A study of Sylvia borin with 20 samples.

Results

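The monocyte and heterophil genes SPI1, CEBPB, CSF1R, CSF3R, NCF1, CYBB, MMP9 and CTSS were chosen by symbol as markers of phagocytes of blood. The choice was made with earlier results of these data known. The genes were read in RNA-seq libraries from the whole blood of garden warblers on migration. Of these 8 genes, 7 were found among the 20898 symbols of the tables and all 7 passed the filter on low values, which left 7800 genes in all, while CYBB was not analysed here. Each of 10 wild birds was caught during spring migration at a stopover site, caged singly with food and water, and bled on day 1, when lean, and again on day 5, when fat, which gave 10 fat and 10 lean libraries. No genetic or drug treatment was applied, the age and sex of the birds are not in the labels, and day in captivity and refueling state cannot be told apart because every bird changed both together. Levels are given as FPKM, an expression value scaled to transcript length and library size, that were divided by a median-of-ratios factor for each library, and fold changes (fat over lean) are on the log2(FPKM + 0.1) scale, which understates the change of genes with low values. The reads had been mapped to the zebra finch genome, another songbird.

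Monocytes and heterophils are phagocytes of avian blood, and heterophils take the place that neutrophils hold in mammals. In mammals, PU.1 (encoded by SPI1) and C/EBPβ (CEBPB) are transcription factors that set up and activate the myeloid program, and the receptors for the growth factors CSF1 and CSF3 (CSF1R and CSF3R) carry the survival and growth signals of macrophages and of granulocytes. The effector genes include NCF1 and CYBB, which encode an organizing subunit and the catalytic subunit of the phagocyte NADPH oxidase, MMP9, a gelatinase stored in granules, and CTSS, a cysteine protease that processes the invariant chain of MHC class II.

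All 7 genes were lower on average in fat than in lean birds, with log2 fold changes between −2.17 and −1.19. MMP9, CEBPB and NCF1 were downregulated in fat birds, whereas SPI1, CSF1R, CSF3R and CTSS did not pass. These calls came from a fit of condition alone, which did not model the pairing of libraries by bird. A gene was called when its p from limma, adjusted over the 7800 genes tested by the Benjamini-Hochberg method, was under 0.05. Of all genes tested, 4.76% were called, 3.27% lower and 1.49% higher in fat birds, and none of the 7 genes was called higher. The median log2 fold change was −1.61 for the 7 genes and −0.10 for all genes tested, and 57.0% of all genes had a fold change below 0. Since the genes were chosen with earlier results of these data known, these contrasts are a description and not independent evidence. When the model also held a term for bird, so that each bird served as its own control, 6 of the 7 genes were called lower, all but CTSS, and none higher. In that model 13.3% of all genes tested were called, 8.08% lower and 5.18% higher. The count among the 7 genes was 3 (MMP9, CSF1R and CEBPB) when birds 8 and 10, whose sample codes differ between the labels and the study's sample list, were left out of that model, where 3.86% of all genes tested were called, 2.21% lower and 1.65% higher. The data cannot tell fewer cells of a type from less RNA per cell, because whole blood was sequenced in bulk.

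The libraries differed in more than these genes. Aligned bases, computed as coverage divided by FPKM, amounted to 1.27 to 3.16 gigabases in fat and 0.882 to 4.71 gigabases in lean libraries. Their means, 2.29 in fat and 2.10 in lean libraries, did not differ past the threshold (exact sign-flip test over 10 birds, two-sided p = 0.77, adjusted 0.77). Symbols above 0 numbered 7226 ± 344 in fat and 7937 ± 568 in lean libraries (SD, n = 10 each; exact sign-flip test over 10 birds, two-sided p = 0.0195, adjusted 0.0293 over the 3 library measures compared), and red cell markers took 21.4 ± 1.80% of all TPM in fat and 18.6 ± 2.15% in lean libraries, with a higher share on day 5 in each of the 10 birds (p = 0.00195 in the same exact test, the smallest it can give, adjusted 0.00586). The lean library of bird 2, which had the fewest aligned bases, held the highest level of every one of the 7 genes. Without this library, a comparison chosen after the values were seen, MMP9 and CEBPB were still called and NCF1 was not (adjusted p = 0.098, limma), and the median log2 fold change of the 7 genes was −1.42.

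The 7 genes spanned a wide range of abundance. MMP9 was the most abundant by this length-scaled measure, with a mean of 9.36 normalized FPKM over the 20 libraries, and exceeded CEBPB, at 6.18, in 19 of 20 libraries. CEBPB in turn exceeded NCF1 in all 20 libraries. NCF1, SPI1 and CTSS had means of 1.68, 1.65 and 1.65, and NCF1 was above SPI1 in only 7 libraries, so their order was within the spread. CSF3R (0.661) and CSF1R (0.286) came last, and CSF3R exceeded CSF1R in 12 libraries. Among the 7800 genes tested, MMP9 ranked 1720 and CSF1R 6245 by mean level. Coverage, the mean read depth per base, had a median of 8.78 in fat and 26.4 in lean libraries for MMP9, and of 0 in fat and 0.961 in lean libraries for CSF1R. A value of 0 is therefore read as listed at 0 and not as absence, and read counts, which would give the counting error of a gene, are not in the tables used here.

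CEBPB, the stress and cytokine responsive transcription factor, had the smallest adjusted p of the 7 genes. It lay between 0.823 and 4.85 normalized FPKM in fat libraries (median 2.07) and between 4.22 and 31.7 in lean libraries (median 8.12). The groups overlapped only at the edge, with 9 of 10 fat libraries below the lowest lean library and 8 of 10 lean libraries above the highest fat library. None of the 7 genes had every fat library below every lean library, a separation seen in 0.0513% of all genes tested. The mean was 2.33 ± 1.24 in fat and 10.03 ± 8.11 in lean libraries (SD, n = 10 each), and limma gave a log2 fold change of −1.95 with a standard error of 0.34 (adjusted p = 0.00373). It was lower when fat in 10 of 10 birds, as were 2.14% of all genes tested, and the difference ran from −0.08 in bird 4 to −3.10 in bird 2.

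SPI1, which encodes PU.1, the factor that commits progenitors to the myeloid lineage, had a lower and more scattered level. It lay between 0 and 1.96 normalized FPKM in fat libraries (median 0.691) and between 0.718 and 7.17 in lean libraries (median 2.03). It was listed at 0 in 1 fat library and in no lean library. The groups overlapped in part, with 5 of 10 fat libraries below the lowest lean one and 6 of 10 lean libraries above the highest fat one. The log2 fold change was −1.64 (standard error 0.50, adjusted p = 0.0595 from limma), just outside the threshold, with lower values when fat in 9 of 10 birds. The exception was bird 3, with a difference of 0.14. With bird as a term the adjusted p was 0.0191.

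Both growth factor receptors were near the limit of detection. CSF1R, the receptor for CSF1 and IL34 on monocytes and macrophages, lay between 0 and 0.475 normalized FPKM in fat libraries (median 0) and between 0 and 1.27 in lean libraries (median 0.376). It was listed at 0 in 6 fat and 2 lean libraries, and no bird had the higher value when fat, since 8 birds were lower and 2 birds (8 and 9) were listed at 0 on both days. The log2 fold change was −1.43 (standard error 0.50, adjusted p = 0.091 from limma), and the adjusted p was 0.0191 with bird as a term. CSF3R, the receptor for the granulocyte growth factor CSF3, lay between 0 and 1.13 in fat libraries (median 0.152) and between 0 and 3.70 in lean libraries (median 0.658). It was listed at 0 in 4 fat libraries and 1 lean library, and birds 4 and 7 had the higher value when fat. Its log2 fold change was −1.61 (standard error 0.58, adjusted p = 0.101 from limma), with an adjusted p of 0.04 with bird as a term. The size of the change of these receptors depends on the pseudocount, with −2.85 for CSF1R and −2.68 for CSF3R at a pseudocount of 0.01 and −0.37 and −0.57 at a pseudocount of 1.

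NCF1, the organizer subunit of the phagocyte oxidase, had the largest fold change of the 7 genes at the pseudocount of 0.1. At 0.01 those of CSF1R (−2.85) and CSF3R (−2.68) were larger than that of NCF1 (−2.67). At 1 those of CEBPB (−1.58) and MMP9 (−1.40) were larger than that of NCF1 (−1.19). NCF1 lay between 0 and 1.10 normalized FPKM in fat libraries (median 0.450) and between 0 and 8.41 in lean libraries (median 2.11). All lean libraries but that of bird 6, which was listed at 0, were above the highest fat library. The mean was 0.493 ± 0.390 in fat and 2.88 ± 2.40 in lean libraries (SD, n = 10 each), and the log2 fold change of −2.17 (standard error 0.63) barely passed, with an adjusted p of 0.0481 from limma. Values were lower when fat in 9 of 10 birds, as they were in at least 9 birds for 8.17% of all genes tested. The call did not hold without any 1 of birds 1, 2, 3, 4, 5, 7, 8, 9 and 10 (adjusted p from 0.054 to 0.126), and it held without bird 6 (adjusted p = 0.0162). These fits held no bird term. With bird as a term the adjusted p of NCF1 was 0.0119, or 0.0657 when birds 8 and 10 were left out of that model.

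MMP9, the granule gelatinase that cleaves denatured collagen, had the next smallest adjusted p. It lay between 1.32 and 9.39 normalized FPKM in fat libraries (median 3.93) and between 5.80 and 38.9 in lean libraries (median 12.6). Of the fat libraries 7 were below the lowest lean library, and of the lean libraries 6 were above the highest fat library. The mean was 4.47 ± 2.36 in fat and 14.3 ± 9.74 in lean libraries (SD, n = 10 each), and limma gave a log2 fold change of −1.60 with a standard error of 0.34 (adjusted p = 0.0128). Only bird 4 had the higher value when fat, by 0.40 on the log2 scale.

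CTSS, the lysosomal protease of antigen presenting cells, varied most from bird to bird. It lay between 0 and 2.33 normalized FPKM in fat libraries (median 0.830) and between 0 and 8.87 in lean libraries (median 2.46), and was listed at 0 in 2 fat libraries and 1 lean library. The groups overlapped broadly, and the difference ran from −5.07 in bird 8 to 3.76 in bird 9. Values were lower when fat in 7 birds and higher in 3. The log2 fold change of −1.19 had a standard error of 0.73 and a 95% interval from −2.70 to 0.32, and did not pass in limma (adjusted p = 0.339) or with bird as a term (adjusted p = 0.299). With 1 bird left out it was −0.76 without bird 8, −0.79 without bird 6 and −1.74 without bird 9. The FPKM of CTSS, unlike that of the other 6 genes, was not proportional to its coverage in most libraries.

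**Figure D1:**
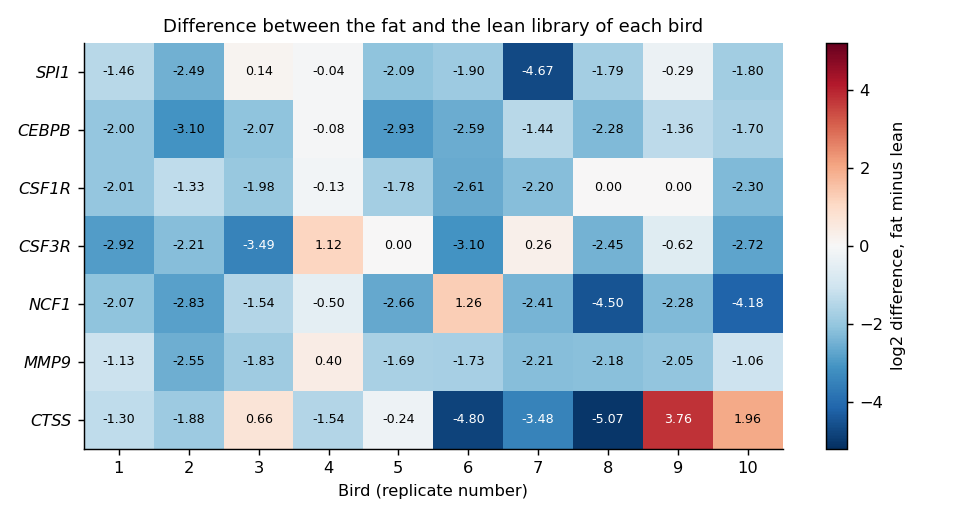
Difference on the log2 scale between the fat and the lean library of each of 10 birds for the 7 genes, with blue for lower and red for higher when fat. In birds 1 and 2 all 7 genes were lower when fat, and in bird 4 the differences of SPI1, CEBPB and CSF1R were close to 0.

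Read by bird, all 7 genes were lower when fat in birds 1 and 2, while 5 or 6 of the 7 were lower in each of the others. The median difference over the genes was below 0 in each bird, from −2.59 in bird 6 to −0.08 in bird 4. Bird 4 stood apart in that its fat library had the highest level of 5 of the 7 genes among fat libraries. This library had the fewest aligned bases of the fat libraries (1.27 gigabases). The lean library of bird 4 had the most aligned bases of all libraries (4.71 gigabases). The part of depth in the values of bird 4 was not tested. Summed over the 7 genes, the level was 3.47 to 19.7 normalized FPKM in fat libraries (median 7.54) and 14.3 to 100 in lean libraries (median 28.4). MMP9 and CEBPB, with means of 9.36 and 6.18, weigh most in this sum. Bird 4 was the only bird without a lower sum when fat, and its sums were close, at 19.70 in the fat and 19.62 in the lean library.

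**Figure D2:**
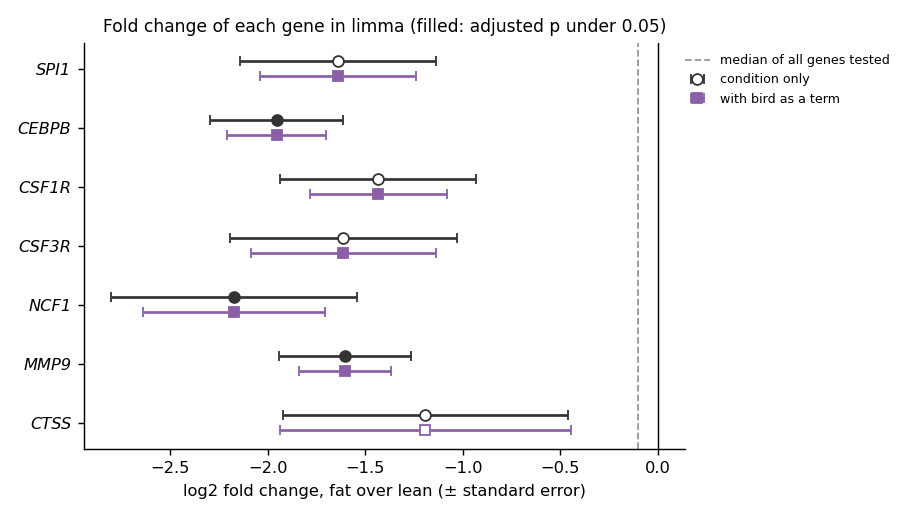
Log2 fold change (fat over lean) of each gene with its standard error in limma, without (circles) and with (squares) bird as a term, with filled symbols for an adjusted p under 0.05 and the dashed line for the median of all genes tested. CEBPB, NCF1 and MMP9 were called in both models and CTSS in neither.

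Coordinated variation was examined within each condition and over the differences of the birds, because both libraries of a bird are not independent. In fat libraries all 21 pairs of genes had a positive Pearson r, with a median of 0.45 and a range from 0.27 to 0.84. The strongest was CSF3R with CEBPB (r = 0.84, permutation p = 0.00331, adjusted 0.0695 over the 21 pairs; Spearman rho = 0.83, permutation p = 0.00584, adjusted 0.123), with r = 0.66 without the 2 libraries farthest from the median of CSF3R. No pair in fat libraries passed after adjustment. Without the 2 libraries farthest from the median of 1 gene of the pair, 19 of the 21 pairs were positive, with r from −0.09 to 0.91. Over all pairs of genes tested the median r was 0.00 in fat and 0.01 in lean libraries, and 50.3% and 51.2% of them were above 0. With all libraries kept, 10.1% of all pairs in fat libraries lay above the median of the 7 genes. The same share was 9.54% in lean libraries.

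In lean libraries 19 of 21 pairs had a positive r, with a median of 0.50 and a range from −0.05 to 0.94. MMP9 and CEBPB were the closest pair (r = 0.94, permutation p = 0.00041, adjusted 0.0085; rho = 0.82, permutation p = 0.00618, adjusted 0.0649), with r = 0.84 without the 2 farthest libraries. SPI1 went with CTSS (r = 0.87, permutation p = 0.00081, adjusted 0.0085; rho = 0.83, permutation p = 0.00453, adjusted 0.0649; r = 0.89 without the 2 farthest libraries). SPI1 went also with CEBPB (r = 0.77, permutation p = 0.00649, adjusted 0.0454; rho = 0.70, permutation p = 0.0307, adjusted 0.193; r = 0.79 without the 2 farthest libraries). These 3 pairs passed by Pearson r and none by Spearman rho. Other pairs held less well. Without the 2 libraries farthest from the median of 1 gene of the pair, 15 of the 21 pairs were positive. The median r over all 21 pairs was then 0.37, with a range from −0.63 to 0.89. NCF1 had r near 0 with CSF1R, CSF3R and CTSS in lean libraries. Without bird 6, whose lean library was listed at 0 for NCF1, the lowest r of the 21 pairs was 0.17. Without bird 2 the median r of lean libraries was 0.22, less than the 0.50 with it. All correlations are on values that share the depth and scaling of a library.

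**Figure D3:**
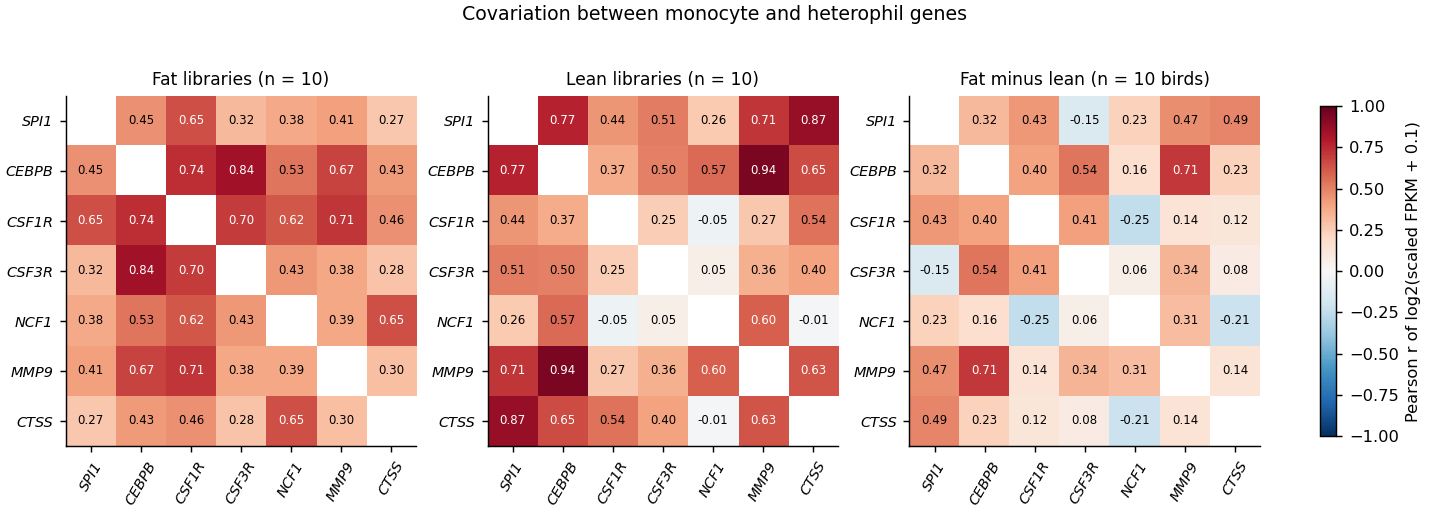
Pearson r between each pair of the 7 genes over 10 fat libraries, over 10 lean libraries and over the fat minus lean differences of 10 birds. All pairs were positive in fat libraries, with CSF3R and CEBPB at 0.84, and MMP9 with CEBPB reached 0.94 in lean libraries.

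Over the differences of the birds 18 of 21 pairs had a positive r, with a median of 0.23, and 28.1% of all gene pairs lay above this value. The largest was MMP9 with CEBPB (r = 0.71, permutation p = 0.0293, adjusted 0.615; rho = 0.37, permutation p = 0.297, adjusted 0.632), and r was −0.11 without the 2 farthest birds, so the relation rests on those birds. Without the 2 birds farthest from the median of 1 gene of the pair, 16 of the 21 pairs were positive, with r from −0.52 to 0.92. Whether a bird kept its level from day 1 to day 5 was examined after the values were seen. The largest r between the lean and fat levels of a bird was that of CSF1R (r = 0.62, permutation p = 0.0489, adjusted 0.342 over the 7 genes; rho = 0.81, permutation p = 0.00835, adjusted 0.0584; r = 0.73 without the 2 farthest birds), and none passed after adjustment. For CTSS the r was −0.26 (permutation p = 0.482, adjusted 0.482; rho = −0.22, permutation p = 0.541, adjusted 0.631; r = −0.00 without the 2 farthest birds).

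Genes with the most similar pattern were looked up for each gene among 4531 genes with a mean of at least 1 normalized FPKM, by Pearson r over the 20 libraries after removal of the condition means, as a description. SPI1 was closest to BASP1 (r = 0.80), APBB1IP, an adaptor of integrin activation (0.79), and ARHGAP15, a regulator of Rac (0.78). CEBPB was closest to S100A11, a calcium-binding protein (0.79), ARHGDIB (0.78), and LCP1, the actin-bundling plastin of leukocytes (0.76). CSF3R was closest to the kinase STK4 (0.82), UBTF (0.78) and the Arp2/3 subunit ARPC5 (0.77). MMP9 was closest to STT3A (0.76), LOC115495295 (0.75) and fibronectin, FN1 (0.74). CTSS shared S100A11 (0.74) with CEBPB and was followed by HNRNPR and TDG (both 0.71). NCF1 was closest to LOC101233268 (0.74), ANTXR2 (0.73) and RUNX1T1 (0.72), and CSF1R to CCNG1 (0.74), SERPINE2 (0.73) and LOC116809120 (0.73). RUNX1T1, CCNG1 and LOC116809120 had log2 fold changes above 0 (0.85, 1.16 and 0.40, none called), and the other genes named here had one below 0. These r are the highest among 4531 candidates, a choice that raises them, and were not tested. The other 6 genes of the set had a median r with CEBPB of 0.58, all above the 95th percentile of all genes (0.51), and with NCF1 of 0.27, with 2 of 6 above that percentile (0.41). By this measure CEBPB was the most central gene of the set and its closest member was MMP9 (r = 0.82). CEBPB and MMP9 were also the only genes of the set above 0 in all 20 libraries. Both libraries of each bird, and the lean library of bird 2, entered these r.

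The wider myeloid machinery was read from 8 lists of related genes. Over all genes tested, 3.27% were called lower and 1.49% higher, and 57.0% had a fold change below 0. With bird as a term these shares of called genes were 8.08% and 5.18%. Of the NADPH oxidase partners of NCF1, 6 of 9 genes were tested, all 6 had a fold change below 0 (median −0.90) and 1 was called lower. The called gene was ARHGDIB, which holds Rac in its inactive form, at 6.84 ± 2.53 normalized FPKM in fat and 15.7 ± 8.24 in lean libraries (SD, n = 10 each; log2 fold change −1.10, adjusted p = 0.0287 from limma). Of the myeloid transcription factors, 9 of 11 were tested, 6 had a fold change below 0 (median −0.91), CEBPD was called lower and none was called higher. CEBPD, a close relative of CEBPB, was at 1.72 ± 1.09 in fat and 6.38 ± 5.52 in lean libraries (log2 fold change −1.64, adjusted p = 0.0382 from limma) and was lower when fat in 8 of 10 birds.

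Of the colony-stimulating factors and cytokine receptors, 6 of 19 were tested and none was called, with a median of −0.56, or −0.37 without IL1R2. IL1R2, the decoy receptor for interleukin 1, was listed at 0 in all 10 fat libraries and in 6 lean libraries, with a highest lean value of 0.824 (adjusted p = 0.203 from limma). Of the pattern recognition and phagocytic receptors, 6 of 19 were tested and none was called (median −0.52). ITGB2, the β2 integrin chain of leukocytes, was at 0.314 ± 0.320 in fat and 0.694 ± 0.480 in lean libraries (adjusted p = 0.144 from limma), and IRAK4, a kinase below Toll-like receptors, was at 1.94 ± 0.585 in fat and 1.32 ± 0.445 in lean libraries (adjusted p = 0.178). TLR5, CD14, LY96 and MARCO were listed at 0 in every library.

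Among genes of Src-family kinase and immunoreceptor (ITAM) signalling, 9 of 11 were tested, all 9 had a fold change below 0 (median −0.87) and 1 was called lower, or 5 with bird as a term. The called gene was PTPN6, the phosphatase SHP-1 that restrains these receptors, at 0.715 ± 0.497 in fat and 2.05 ± 1.31 normalized FPKM in lean libraries (SD, n = 10 each; log2 fold change −1.47, adjusted p = 0.0307 from limma). The 14 lysosomal genes tested of 16 listed were split, with 8 below 0, a median of −0.18 and 2 called lower. The called genes were LGMN, the asparaginyl protease legumain, at 0.0745 ± 0.0964 in fat and 0.767 ± 0.677 in lean libraries (adjusted p = 0.0443), and GRN, the precursor of progranulin, at 0.293 ± 0.454 in fat and 1.23 ± 0.820 in lean libraries (adjusted p = 0.0463, limma), whose adjusted p was 0.0536 with bird as a term. LGMN and GRN were each listed at 0 in 6 fat libraries, and LGMN was at 0 also in 2 lean libraries and GRN in 1. With FPKM as deposited 12 lysosomal genes were below 0 and the list median was −0.48. Of the metalloproteinases and their inhibitors 3 of 11 were tested, none was called (median −0.78) and TIMP3 and TIMP2, inhibitors of these proteases, had adjusted p of 0.0853 and 0.191 from limma. With bird as a term TIMP3 was called lower (adjusted p = 0.0473). Of the granule and inflammatory proteins 3 of 11 were tested (median −1.80). LYZ and LGALS3 were listed at 0 in every library, and MPO, CTSG, ELANE, LCN2, S100A9 and S100A12 were not analysed here. ANXA2, a membrane-binding annexin, was called lower, at 3.50 ± 2.64 in fat and 12.1 ± 9.16 in lean libraries (log2 fold change −1.80, adjusted p = 0.0319), in 10 of 10 birds. The rest of those tested, SRGN and ANXA1, had log2 fold changes of −0.57 and −1.82 (adjusted p = 0.361 and 0.0717 from limma). With bird as a term ANXA1 was called lower (adjusted p = 0.0156) and SRGN was not (adjusted p = 0.264). No gene of the 8 lists was called higher in fat birds, and with bird as a term 1 was, the lysosomal protease CTSD (adjusted p = 0.0144).

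**Figure D4:**
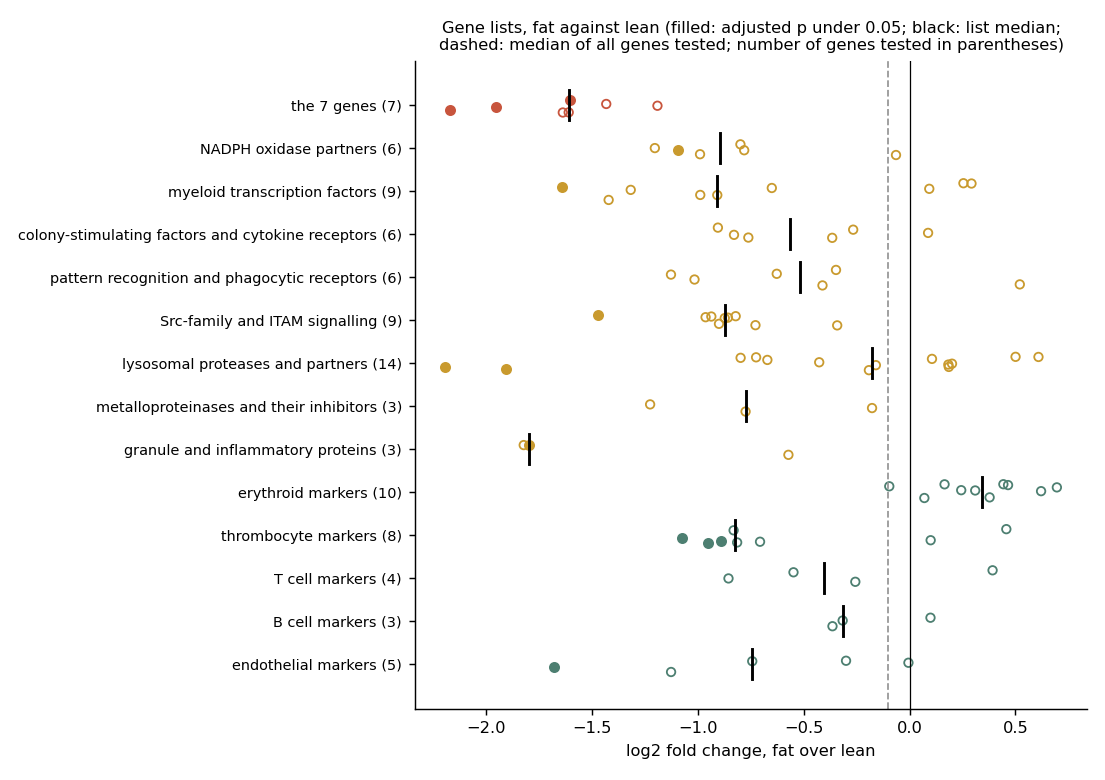
Log2 fold change (fat over lean) of each gene tested in the 8 myeloid lists and the lists of markers of other cells, with filled points for an adjusted p under 0.05, a black bar for the median of the list and a dashed line for the median of all genes tested. The median was −1.61 for the 7 genes, −0.82 for thrombocyte markers and 0.34 for red cell markers.

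Markers of the other cells that blood samples could hold were read in the same way. The shares over all genes tested were again 3.27% called lower and 1.49% higher, or 8.08% and 5.18% with bird as a term. Red cells, which keep their nucleus in birds, gave the most abundant markers, with a summed level of 166923 to 300990 normalized FPKM in fat and 123055 to 187589 in lean libraries, and none of the 10 tested of 14 listed was called, while 1 was called higher with bird as a term. HBAA, an α-globin, and HBE1, a β-type globin, were both higher when fat in 10 of 10 birds (adjusted p = 0.11 and 0.154 from limma). With bird as a term neither was called (adjusted p = 0.221 and 0.0808 from limma). For HBAA the log2 fold change was 0.62, and the difference ran from 0.35 in bird 6 to 0.90 in bird 8. Its log2 SD was 0.29 in fat and 0.22 in lean libraries. The standard error in limma, which also draws on the variance of genes of similar level, was 0.23. The paper, which used a count model, reports HBAA as differing between the states. The median of the red cell list was 0.34, but 0.03 with FPKM as deposited, a scaling that moved the median of all genes to −0.35. Of the thrombocyte markers 8 of 14 were tested and 3 were called lower, with a median of −0.82 and a summed level of 98.2 to 146 in fat and 87.5 to 241 in lean libraries, and with bird as a term 6 were called lower and 1 higher. TUBB1 and FLI1, the most abundant of them, had log2 fold changes of 0.10 and −0.71 (adjusted p = 0.826 and 0.0939 from limma). FLI1 was called lower with bird as a term (adjusted p = 0.0327). The 3 called genes, named after their values were seen, were the integrin chain ITGB3, the platelet glycoprotein GP1BB and the coagulation factor subunit F13A1 (adjusted p = 0.0407, 0.0455 and 0.0405).

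T cell markers had a summed level of 0.232 to 1.88 normalized FPKM in fat and 0.259 to 1.63 in lean libraries, B cell markers one of 0.126 to 1.33 in fat and 0.301 to 3.09 in lean libraries, and no gene of the 4 and 3 tested was called. CD247 and TCF7 of T cells and BLNK and BCL11A of B cells, the most abundant, had means of 0.138, 0.344, 0.150 and 0.252 in fat and 0.226, 0.231, 0.261 and 0.375 in lean libraries, and CD3E, CD2, CD5, BLK and TNFRSF13B were listed at 0 in every library. Endothelial markers had a summed level of 1.26 to 2.94 in fat and 1.27 to 9.37 in lean libraries, lower when fat in 9 of 10 birds. Of the 10 listed 5 were tested, with a median of −0.74, and 1 was called lower, or 2 with bird as a term. CLDN5, a tight junction protein, was called lower (adjusted p = 0.0128 from limma), and TEK, a vascular receptor kinase, was lower in 10 of 10 birds (adjusted p = 0.103, or 0.0113 and called with bird as a term). The rest of those tested, ERG, PECAM1 and ESAM, had log2 fold changes of −0.74, −0.30 and −0.01 and were called in neither model. EMCN was listed at 0 in every library. Connective tissue markers stayed at or below 0.480 in all libraries, with COL1A2, COL6A1, DCN and LUM listed at 0 in each. The part of these shifts in the lower levels of the monocyte and heterophil genes was not tested.

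The genes do not overlap any other gene in the coordinates of the tables. MMP9 runs from 7160609 to 7165233 and CEBPB from 14276829 to 14279175 on the minus strand of the same sequence of the zebra finch assembly, while SPI1 (22979450 to 23000690, plus strand), NCF1 (7811781 to 7819951, minus), CSF1R (11833447 to 11851579, minus), CSF3R (990396 to 996919, plus) and CTSS (2063876 to 2069015, minus) each lie on another sequence.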

How the data were processed

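Per the paper's methods, reads were trimmed with ERNE 2, mapped by STAR to the zebra finch assembly and summarised per gene by StringTie (versions of STAR and StringTie not given in the sources used here). The authors deposited 1 table per library with FPKM, TPM and coverage (signal, mean depth per base) for each gene, without normalization between libraries. Read counts were not used here, so no count model was run.

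Lines with the same symbol were summed. FPKM was divided by median-of-ratios factors over 4487 symbols above 0 in every library, genes whose deposited FPKM averaged 0.1 or more were retained, and log2(FPKM + 0.1) was tested with limma 3.58.1 in R 4.3.3 (eBayes with trend, Benjamini-Hochberg adjustment of two-sided p, threshold 0.05). No bird term was used, as the methods of the paper name none. Other steps used scipy 1.17.1, numpy 2.4.6, matplotlib 3.10.9 and pandas 2.3.3 under Python 3.11.15. Correlations used 100000 permutations. Fits and correlations were tested on simulated data.

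The replicate number marks the bird. After removal of condition means, the libraries of a bird correlated with r from 0.152 to 0.382, against a median of −0.02 for other pairs. For 10 of 10 fat libraries the best match among lean libraries was that of the same bird.

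The members and lists were chosen with earlier results of these data known. Named genes were the 8 genes, up to 3 called genes of each myeloid list (otherwise the 2 with the smallest p), the 2 most abundant markers of each other cell type, and the 3 genes most like each member, and 1 gene that this rule names is not reported here. Alternatives were pseudocounts, filters, unscaled FPKM or TPM, quantile normalization, a bird term, aligned bases as a covariate, sample weights and each bird left out. Promoter motifs were planned and not run, since no sequences were used here. The relation between lean and fat levels of a bird was added after the data were seen.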

Additional observations from a re-analysis of the deposited data

Results flagged for a closer look

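Among 32 groups of 10 libraries examined (14 of the 7 genes, the others of library measures and marker sums), 2 held a library far from the others, and chance alone marks about 1 in 20. NCF1 was listed at 0 in the lean library of bird 6, while the other lean libraries had from 1.33 to 8.41 normalized FPKM. CEBPB was at 31.7 normalized FPKM in the lean library of bird 2, against 12.3 for the next highest lean library. The cause of either value was not tested.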

How the results depend on the processing

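All 7 genes kept a fold change below 0 under every alternative that tested them. CEBPB and MMP9 stayed past the threshold in each of 22 alternatives, with log2 fold changes from −2.35 to −1.58 and from −2.003 to −1.40. NCF1 stayed past it in 6 of 22, with −2.67 to −1.19 and adjusted p of 0.0119 to 0.149. SPI1 passed in 3 of 22, CSF1R and CSF3R each in 3 of 21, and CTSS in none. Apart from the fits with bird as a term, these alternatives did not model the pairing of libraries by bird. The number of the 7 genes called, 3 here, was 5 with unscaled FPKM, 6 with unscaled TPM and 6 with bird as a term (replicate block), and between 2 and 3 with each bird left out. The count over all genes, 371, was 120 without the filter, 882 with unscaled FPKM and 1243 with unscaled TPM (97.1% and 98.6% of them lower in fat birds, against 68.7%), 177 with quantile normalization (58.8% lower), 1034 with the replicate block (301 without birds 8 and 10), 160 with aligned bases as a covariate, 112 without the lean library of bird 2 (chosen after seeing the data) and 73 to 400 with each bird left out. The median log2 fold change of all genes was −0.35 with unscaled FPKM, −0.43 with unscaled TPM and 0.05 with quantile normalization, against −0.10. The median r of the differences was 0.49 with a pseudocount of 1, against 0.23, and ran from 0.11 to 0.34 with each bird left out. That of lean libraries ran from 0.22 to 0.57. With each bird left out, the fat minus lean difference in symbols above 0 ran from −881 to −622. Its adjusted p was above 0.05 without bird 1, 5, 6, 7 or 10. The difference in aligned bases ran from 0.0949 to 0.594 gigabases. It did not pass with all birds (adjusted p = 0.77, exact sign-flip test) and passed only without bird 4 (adjusted p = 0.0117). No counting error can be given because the tables used hold no read counts, and differences of CSF1R and CSF3R were at the edge of detection.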

Other observations

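CTSS was the only one of the 7 genes whose coverage did not follow its FPKM by the factor of its library. For the other 6 genes, coverage divided by FPKM was between 0.999 and 1.00 times the median ratio of the library wherever the gene was above 0. For CTSS this quantity lay between 0.544 and 1.00 (median 0.628) over the 17 libraries above 0. Read as coverage per aligned gigabase after the same scaling, CTSS lay between 0 and 1.36 in fat libraries (median 0.575) and between 0 and 4.82 in lean libraries (median 1.49), and was lower when fat in 7 of 10 birds, as it was by FPKM. The cause was not tested.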
